A study of Mus musculus with 6 samples.

Results

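The genes examined were 8 that encode parts of the cell's own killing machinery, namely Casp1, Casp4, Casp8, Gsdmd, Mlkl, Ripk3, Fas and Tnfsf10. They were taken from the count table by their symbols, with no use of measured values, and they are 8 of the 55487 genes listed. RNA was sequenced from subcutaneous tumors of CT26.WT, a mouse colon carcinoma line of wild-type genotype, grown in immunocompetent BALB/c mice. Each group held 3 tumors. The mice were male and 4 weeks old when obtained. In the IFN-γ group, 100 µL of recombinant mouse IFN-γ at 100 ng/ml was injected into the tail vein every 48 h, and the control group received PBS in the same volume. The tumors were collected whole, so each library mixes the implanted cancer cells with the host's leukocytes, fibroblasts and vessels. The comparison asks which genes differ in tumors of mice given IFN-γ.

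Cells can be made to die from within along several routes. Death ligands such as TRAIL, the product of Tnfsf10, and the Fas receptor pass a signal to caspase-8, a protease that starts apoptosis. When caspase-8 is inactive, the kinase RIPK3 can instead phosphorylate MLKL, which breaks the plasma membrane in necroptosis. Caspase-1 and caspase-11, the product of mouse Casp4, cut gasdermin D, whose freed fragment forms pores and leads to pyroptosis. Several of these genes are known targets of interferon signaling, in cancer cells and in macrophages alike.

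All 8 genes had ample reads, from 89 counts of Fas in control tumor 1 to 1574 counts of Gsdmd in IFN-γ tumor 1. Library totals ran from 15759300 to 17559680 counts. Levels are given as CPM, that is read counts scaled to a common library size after TMM, a factor that evens out differences in library composition. Of the 8 genes, 7 had their highest levels in IFN-γ tumors 1 and 2, and the exception was Casp8. IFN-γ tumor 3 had the lowest level of the IFN-γ group for all 8, and it was under the mean of the controls for 6. The shares of all genes with these patterns were not computed, so these counts are a description of the 8 only.

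IFN-γ tumor 3 stood apart in other genes as well. The summed CPM of 12 interferon response genes was 1097 to 1950 in the controls. It reached 3368 in IFN-γ tumor 1 and 3460 in IFN-γ tumor 2, but 1486 in IFN-γ tumor 3. Socs1, a feedback inhibitor in the same list, went another way, with 17.1 to 17.8 CPM in the controls and 25.3, 23.5 and 27.1 CPM in IFN-γ tumors 1, 2 and 3, the highest in IFN-γ tumor 3. Irf1, a transcription factor induced by IFN-γ, had 308, 290 and 177 CPM in the IFN-γ group, in the order of tumors 1, 2 and 3, and Cd274, which encodes PD-L1, with 104, 101 and 38.8 CPM. Summed keratinocyte markers reached 69.3 CPM in IFN-γ tumor 3, against 2.75 to 12.3 CPM in the other 5 libraries. Of 8 colon epithelial markers, Cdx2 had no read in any tumor, Epcam did not exceed 0.928 CPM, and Krt20 had 113 to 271 CPM. Each of the 8 genes is therefore reported with all 6 tumors and then without IFN-γ tumor 3. For some other genes a single fit is given. The labels do not mark this tumor. The figure legends of the study give fewer IFN-γ tumors than the labels for this experiment, and the legend on genes also gives fewer controls. The tumors left out are not named, so IFN-γ tumor 3 is not known to be among them. This tumor was singled out with its values known, so a fit without it is no independent evidence of direction.

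**Figure D1:**
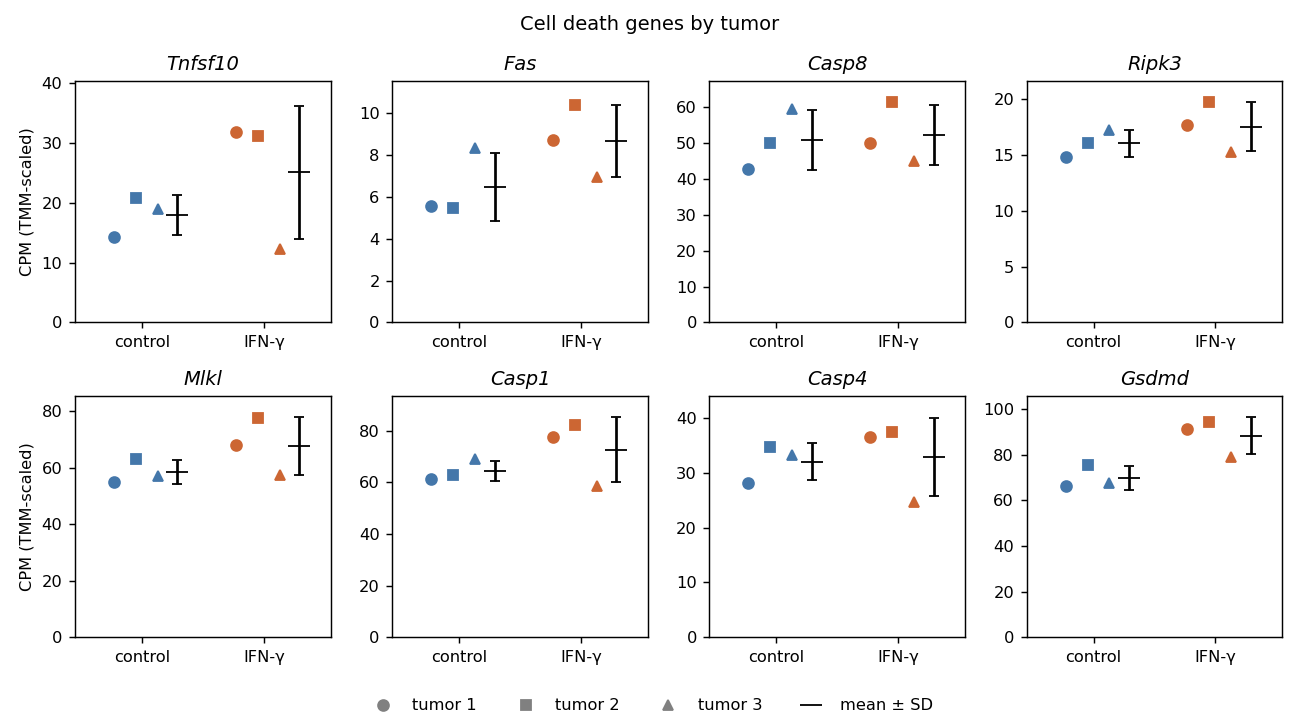
CPM of each gene (vertical axes, from 0) in the 3 control and 3 IFN-γ tumors (horizontal axes), with 1 symbol shape for each tumor number and the mean ± SD beside each group. IFN-γ tumor 3 is the lowest IFN-γ tumor in every panel, and Gsdmd is the gene whose IFN-γ tumors all lie above its controls.

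With all 6 tumors, 0 of the 8 genes passed an adjusted p of 0.05 in edgeR's quasi-likelihood test, where 0.0794% of the 15114 genes tested were higher in the IFN-γ group. DESeq2 and limma-voom also called 0 of the 8. At an unadjusted p under 0.05, 1 of the 8 was higher, and that share over all genes was 5.74%. The fitted log2 fold change was above 0 for all 8 genes, against 50.4% of all genes tested. The exact permutation test (two-sided, smallest possible p of 0.1) gave p = 0.2 for Fas and Mlkl, 0.4 for Tnfsf10, Ripk3 and Casp1, 0.7 for Casp8, 0.9 for Casp4 and 0.1 for Gsdmd. The median log2 fold change was 0.19 over the 8 genes and 0.0015 over all genes.

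When IFN-γ tumor 3 was left out, Gsdmd and Tnfsf10 passed the adjusted threshold, so 2 of 8 genes against 2.46% of the 15487 genes tested. At an unadjusted p under 0.05 the number was 5 of 8 against 9.6%. The levels in IFN-γ tumors 1 and 2 lay above all 3 controls for 7 of the 8 genes, and for 18.1% of all genes. The median log2 fold change of the 8 genes was 0.30, and that of all genes was -0.016. Without any other single tumor, 0 of the 8 genes passed.

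**Figure D2:**
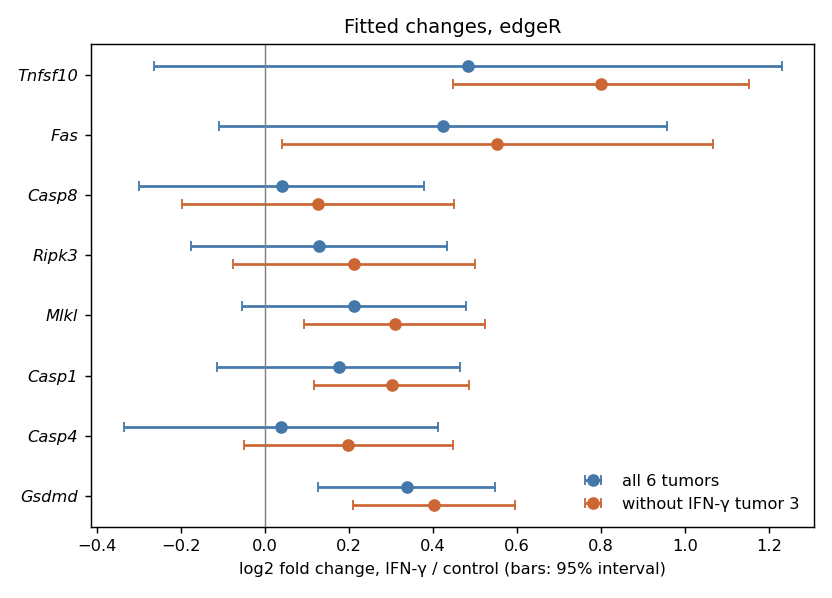
Fitted log2 fold change of each gene (horizontal axis) with its 95% interval, with all 6 tumors and without IFN-γ tumor 3. With all 6 tumors the interval of Gsdmd lies above 0, from 0.13 to 0.55, and the other 7 include 0.

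The promoter windows of the ligand, the receptor and the initiator caspase are shown because these 3 genes make up the death receptor branch and each holds a match to an interferon-related motif. Windows of 250 bases before to 50 bases after the transcription start were taken from RefSeq on GRCm38.p6, the assembly of the mm10 build named in the submitters' processing notes, and 7 of the 8 genes matched. The IRF core AANNGAAA, read on either strand, occurred in the windows of 4 of these 7 genes, Tnfsf10, Fas, Casp8 and Casp4, and in 23.9% of the 32851 windows of all genes. The GAS motif TTCNNNGAA, the IFN-γ-activated site, occurred in the window of Fas and in 8.30% of all windows. The longer ISRE form GAAANNGAAA was in 0 of the 7 and in 3.44% of all. The windows of Casp1, Mlkl and Ripk3 held none of these letters. Capitals mark every match, in 5′ to 3′ order on the plus strand, for Tnfsf10 at chr3:27316827-27317126, Fas at chr19:34290409-34290708 and Casp8 at chr1:58802252-58802551.
Tnfsf10: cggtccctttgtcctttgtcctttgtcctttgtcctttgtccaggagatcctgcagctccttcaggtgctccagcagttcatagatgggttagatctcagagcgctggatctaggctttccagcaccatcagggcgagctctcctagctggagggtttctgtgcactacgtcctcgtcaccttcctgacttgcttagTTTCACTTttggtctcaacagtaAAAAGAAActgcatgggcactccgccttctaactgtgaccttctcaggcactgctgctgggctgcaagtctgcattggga
Fas: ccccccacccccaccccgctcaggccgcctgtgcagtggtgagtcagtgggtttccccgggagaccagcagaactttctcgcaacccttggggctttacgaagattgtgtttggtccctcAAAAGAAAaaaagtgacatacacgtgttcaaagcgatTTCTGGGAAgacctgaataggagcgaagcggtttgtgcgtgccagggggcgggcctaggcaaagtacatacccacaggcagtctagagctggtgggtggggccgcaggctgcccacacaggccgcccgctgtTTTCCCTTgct
Casp8: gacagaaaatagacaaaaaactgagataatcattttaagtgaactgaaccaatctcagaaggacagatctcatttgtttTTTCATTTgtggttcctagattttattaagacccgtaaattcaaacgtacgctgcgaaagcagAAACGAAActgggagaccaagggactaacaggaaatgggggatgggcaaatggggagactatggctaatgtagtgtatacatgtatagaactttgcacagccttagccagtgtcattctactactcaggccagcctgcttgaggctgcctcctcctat
In Tnfsf10 the IRF cores lay 53 to 46 and 30 to 23 bases before the start. In Fas the GAS match lay 93 to 85 bases before it. In Casp8 the IRF cores lay 171 to 164 and 108 to 101 bases before a start that is inside the gene as GENCODE M21 draws it. Casp4, whose windows are not shown, held IRF cores in both of its windows, and in the first they lay 186 to 179 bases before the start and 2 to 9 bases after it. These matches describe the letters only, and binding was not measured here.

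Tnfsf10 is the death ligand of the group, and its gene lies on chromosome 3 from 27317028 to 27342427 on the plus strand. It had 14.2, 20.7 and 18.9 CPM in control tumors 1, 2 and 3, and 31.8, 31.2 and 12.3 CPM in IFN-γ tumors 1, 2 and 3. IFN-γ tumors 1 and 2 were far above every control, and IFN-γ tumor 3 was below every control. The means were 17.95 ± 3.38 CPM among controls (SD, n = 3) and 25.1 ± 11.1 CPM in the IFN-γ group (SD, n = 3). With all 6 tumors the log2 fold change was 0.48 (standard error, SE, 0.33, adjusted p = 0.68, edgeR). Without IFN-γ tumor 3 it was 0.80 (SE 0.15, adjusted p = 0.033, edgeR), a 1.74-fold rise. The change was thus larger than the spread between replicates only when this tumor was left out.

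Fas, the receptor for Fas ligand, lies on chromosome 19 from 34290666 to 34327772 on the plus strand. Its levels were 5.56, 5.47 and 8.34 CPM in the controls and 8.71, 10.4 and 6.93 CPM in the IFN-γ tumors. Control tumor 3 was above IFN-γ tumor 3, so the groups overlapped. The log2 fold change was 0.42 with all 6 tumors (SE 0.23, adjusted p = 0.58, edgeR) and 0.55 without IFN-γ tumor 3 (SE 0.23, adjusted p = 0.27, edgeR). Fasl, the ligand of Fas, was named after its values were seen, and it was low, with 1.56 to 3.10 CPM in the controls and 1.36 to 4.03 CPM in the IFN-γ tumors.

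Casp8, which encodes the initiator caspase shared by both death receptors, lies on chromosome 1 from 58795374 to 58847503 on the plus strand. The controls had 42.8, 49.95 and 59.5 CPM and the IFN-γ tumors 50.2, 61.4 and 45.0 CPM. The groups were interleaved, and control tumor 3 was second only to IFN-γ tumor 2. The log2 fold change was 0.039 with a 95% interval of -0.30 to 0.38 (adjusted p = 0.96, edgeR), so changes within these bounds in either direction could not be told from the spread. Leaving out IFN-γ tumor 3 gave 0.13, with an interval of -0.20 to 0.45.

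Ripk3, the kinase of necroptosis, lies on chromosome 14 from 55784995 to 55788865 on the minus strand. It had 14.8, 16.1 and 17.3 CPM in the controls and 17.7, 19.7 and 15.3 CPM in the IFN-γ tumors. IFN-γ tumor 1 was only slightly above control tumor 3, and IFN-γ tumor 3 was below control tumors 2 and 3. The log2 fold change was 0.13, with a 95% interval of -0.18 to 0.43 (adjusted p = 0.81, edgeR), and 0.21 without IFN-γ tumor 3 (adjusted p = 0.48, edgeR).

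Mlkl encodes the membrane-breaking protein downstream of RIPK3 and lies on chromosome 8 from 111311797 to 111338177 on the minus strand. The controls had 55.1, 63.3 and 57.3 CPM. The IFN-γ tumors had 68.1, 77.8 and 57.4 CPM, so IFN-γ tumors 1 and 2 were above the controls and IFN-γ tumor 3 was among them. The log2 fold change was 0.21 with all 6 tumors (SE 0.12, adjusted p = 0.59, edgeR). Leaving out IFN-γ tumor 3 gave 0.31 (SE 0.094, unadjusted p = 0.010, adjusted p = 0.14, edgeR), which did not pass.

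Casp1 and Casp4, the inflammatory caspases, are neighbors on chromosome 9, plus strand, spanning 5298517 to 5307265 and 5308828 to 5336783, with 1562 bases between them. Casp1 had 61.3, 62.9 and 68.9 CPM in the controls and 77.5, 82.0 and 58.4 CPM in the IFN-γ tumors. IFN-γ tumor 3 was below every control. Its log2 fold change was 0.17 (SE 0.13, adjusted p = 0.70, edgeR), and 0.30 without IFN-γ tumor 3 (SE 0.081, unadjusted p = 0.0052, adjusted p = 0.097, edgeR). Casp4 had 28.3, 34.7 and 33.3 CPM in the controls and 36.6, 37.4 and 24.7 CPM in the IFN-γ tumors. The upper IFN-γ values were only slightly above the highest control, and IFN-γ tumor 3 was again the lowest of the 6. Its log2 fold change was 0.038, with a 95% interval of -0.34 to 0.41 (adjusted p = 0.97, edgeR), and 0.20 without IFN-γ tumor 3 (adjusted p = 0.43, edgeR).

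Gsdmd, which encodes the pore-forming target of both inflammatory caspases, lies on chromosome 15 from 75862327 to 75867408 on the plus strand. It had 66.2, 75.8 and 67.8 CPM in the controls and 91.4, 94.5 and 79.2 CPM in the IFN-γ tumors. Gsdmd alone among the 8 had all 3 IFN-γ tumors above all 3 controls, a pattern found in 7.62% of the genes tested. The means were 69.9 ± 5.13 CPM among controls (SD, n = 3) and 88.3 ± 8.11 CPM in the IFN-γ group (SD, n = 3), and the exact permutation test gave its smallest possible p of 0.1 (two-sided). The log2 fold change was 0.34 (SE 0.092, 95% interval 0.13 to 0.55), with an unadjusted p of 0.0060 and an adjusted p of 0.30 in edgeR. Without IFN-γ tumor 3 it was 0.40 (SE 0.084, adjusted p = 0.044, edgeR), a 1.32-fold rise. The alternatives moved this estimate little, between 0.28 and 0.41 in 15 fits.

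Levels of different genes can be compared only per length, here as CPM per kilobase of merged exons in GENCODE M21. Casp1 was the highest, at 43.0 ± 2.66 in the control group (SD, n = 3), followed by Gsdmd at 29.4 ± 2.16, Mlkl at 25.4 ± 1.84 and Casp8 at 17.6 ± 2.90. Casp4 had 8.65 ± 0.914 and Ripk3 7.01 ± 0.533 CPM per kilobase in the same group. Tnfsf10 and Fas were the lowest, at 3.41 ± 0.642 and 3.13 ± 0.792. The ranges of mean ± SD overlapped between Gsdmd and Mlkl and between Tnfsf10 and Fas, and between no other neighbors in this order. These ranges ignore that the genes were measured in the same tumors, so an overlap does not mean that the order differed between tumors. In control tumors the effector Mlkl thus had a higher level per length than its kinase Ripk3, and Casp1 a higher one than its neighbor Casp4. The length covers the exons of every annotated transcript, 5266 bases for Tnfsf10 and 1497 for Casp1. Which transcripts these tumors express was not determined, so the order depends on that length.

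**Figure D3:**
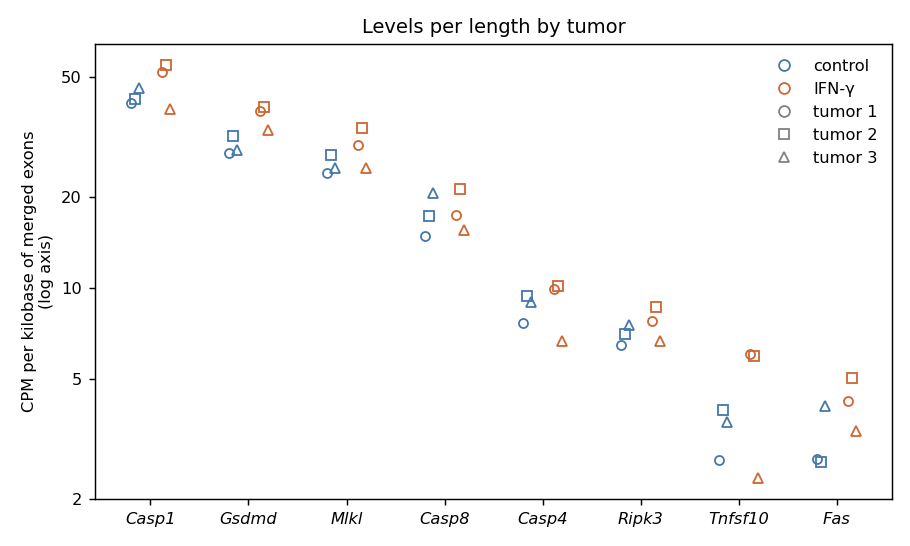
CPM per kilobase of merged exons (vertical log axis) in each tumor, with genes in the order of their control mean. Casp1, Gsdmd and Mlkl are the highest, and Tnfsf10 and Fas the lowest, at 3.41 and 3.13 in the control group.

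The 8 genes varied together across the tumors. The Pearson correlation of log2 CPM between pairs of them, over 6 tumors, lay between 0.36 for Gsdmd with Casp8 and 0.95 for Casp1 with Ripk3. This is a description only, since all the genes share the same libraries. Control tumor 1 had the lowest control level for 7 of the 8, with Fas as the exception. The share of all genes with that pattern was not computed. Averaged over the 8 genes as standardized log2 CPM, the libraries stood at -1.002, -0.23 and 0.035 for control tumors 1, 2 and 3 and at 0.71, 1.31 and -0.82 for the IFN-γ group in the same order. Other genes whose pattern was most like this average were Ly6c1, Frmd4b, Scarb2, Sema4d and Cd53, with correlations from 0.996 to 0.997 over the 6 tumors. They were picked as the highest of all genes tested, so such high correlations over 6 tumors follow in part from that choice. Cd53, a marker of leukocytes, is the only gene among them in the marker lists used here.

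Leukocyte markers moved in the same tumors. The summed CPM of Ptprc, Laptm5, Coro1a and Cd53 was 454, 542 and 552 in the controls and 762, 779 and 441 across the IFN-γ group. In IFN-γ tumors 1 and 2 the sum averaged 149% of the control mean. The 8 macrophage markers summed to 141% in these tumors and 8 T cell markers to 167%, while IFN-γ tumor 3 had 101% and 62.1%. Mrc1, a macrophage marker, went the other way. It had 433, 391 and 407 CPM in the controls and 368, 369 and 322 CPM in IFN-γ tumors 1, 2 and 3. Of the cell death genes, Tnfsf10 averaged 175% of its control mean in IFN-γ tumors 1 and 2, Fas 148%, Gsdmd 133%, Mlkl 125%, Casp1 124%, Ripk3 117%, Casp4 115% and Casp8 110%. Without IFN-γ tumor 3, edgeR called 3 of 4 leukocyte markers, 5 of 8 macrophage markers and 0 of 8 T cell markers higher, against 2.46% of all genes. Yet all 8 T cell markers had a log2 fold change above 0 in that fit, and 7 had an unadjusted p under 0.05. Their median log2 fold change was 0.84, and that of the macrophage markers was 0.55. The 5 macrophage markers were Adgre1, Cd68, C1qa, C1qb and C1qc. With all 6 tumors edgeR called none of the markers in these lists. In these whole-tumor libraries, more cells of a type and more RNA per cell cannot be told apart, and the part of leukocyte content in the levels of the 8 genes was not tested.

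Fibroblast markers summed to 2723 to 3815 CPM in the controls and 2719 to 3858 CPM in the IFN-γ tumors, and endothelial markers to 197 to 250 and 156 to 209 CPM. Neutrophil markers summed to 29.0 to 37.3 CPM in the controls and 36.5 to 46.9 CPM in the IFN-γ tumors. Most of that sum was Csf3r. Of 5 neutrophil markers tested without IFN-γ tumor 3, 2 had a log2 fold change above 0, and the median was -0.17. Csf3r was estimated at 0.74 in that fit (adjusted p = 0.014, edgeR), but S100a9 at -0.63 and Retnlg at -1.67. With all 6 tumors Csf3r was estimated at 0.56 (adjusted p = 0.37, edgeR). Dendritic cell markers summed to 25.7 to 37.7 and 29.1 to 49.4 CPM. NK cell markers lay at 9.07 to 19.3 and 7.24 to 25.3 CPM, and Klra8 among them had no read. B cell markers lay at 5.63 to 9.36 and 6.31 to 6.66 CPM. Adipocyte markers summed to 102 to 144 CPM in the controls and 143 to 195 CPM in the IFN-γ tumors, and most of that sum was Fabp4. The other 5 of these 6 markers were higher in every IFN-γ tumor than in every control, IFN-γ tumor 3 included. That pattern was found in 7.62% of all genes tested. The median log2 fold change of the 6 markers was 2.17 with all 6 tumors, although none passed the adjusted threshold. Adipoq, for example, had 0.451 to 1.81 CPM in the controls and 3.13, 6.84 and 5.69 CPM in the IFN-γ tumors. The part of adipose tissue in the levels of the cell death genes was not tested. Skeletal muscle markers summed to 102 to 719 and 119 to 383 CPM. Colon epithelial markers summed to 166 to 188 CPM in the controls and 123 to 283 CPM in the IFN-γ tumors. With all 6 tumors edgeR called no marker of these lists. Without IFN-γ tumor 3 it called 4 adipocyte markers, 1 neutrophil marker and 9 of the 12 interferon response genes higher, against 2.46% of all genes. Krt20 was called lower in that fit.

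**Figure D4:**
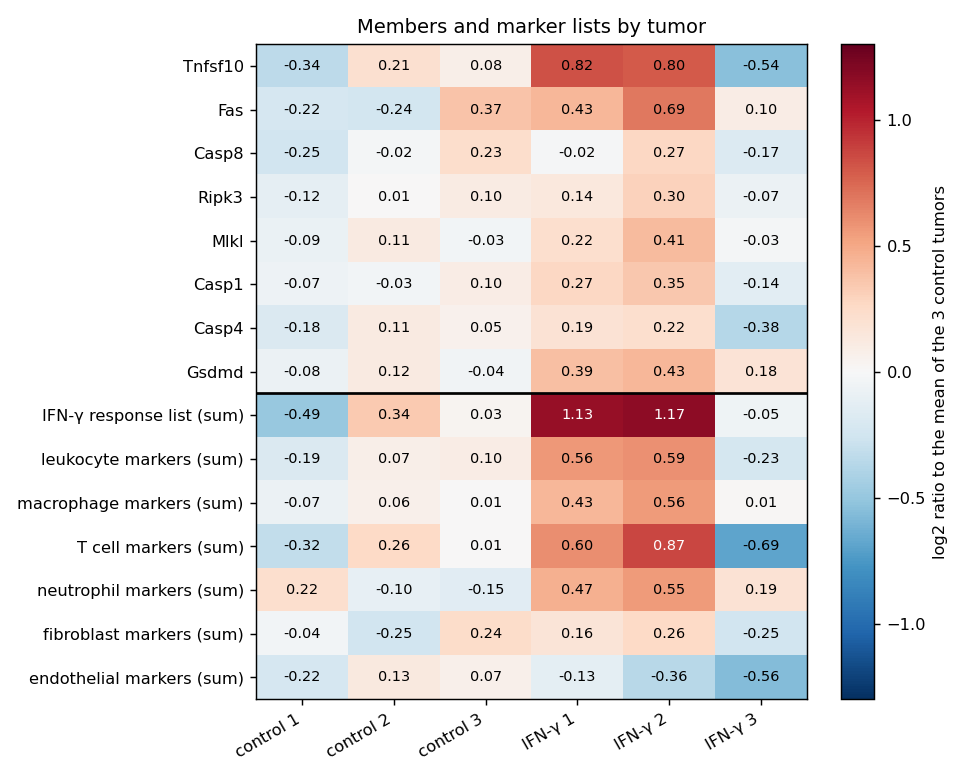
Log2 ratio of each tumor to the mean of the 3 controls (color, with the value in each cell) for the 8 genes above the line and for summed marker lists below it, with tumors in columns. IFN-γ tumors 1 and 2 are above 0 in most rows. IFN-γ tumor 3 is below 0 for 6 of the 8 genes and for every sum except the macrophage and neutrophil sums.

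The wider cell death machinery was described with 9 lists holding 87 genes, the 8 among them. With all 6 tumors, edgeR called 0 of the 75 tested, and 55 had a log2 fold change above 0, against 50.4% of all genes. The fit without IFN-γ tumor 3 called 6 of 75 higher, against 2.46% of all genes, and 0 lower. Beside Gsdmd and Tnfsf10 these were Zbp1, Casp12, Il18bp and Tnfrsf1b. The 67 tested genes other than the 8 had a median log2 fold change of 0.098 with all 6 tumors and 0.12 without IFN-γ tumor 3.

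In the necroptosis list, 1 of 8 tested genes passed without IFN-γ tumor 3. This was Zbp1, the nucleic acid sensor that can activate RIPK3, which had 91.5, 134 and 112 CPM in the controls and 231, 259 and 109 CPM in the IFN-γ tumors. Its log2 fold change was 0.83 with all 6 tumors (adjusted p = 0.39, edgeR) and 1.11 without IFN-γ tumor 3 (adjusted p = 0.011, edgeR). Chmp4b, a membrane repair subunit with the highest CPM of the list, not scaled for length, had log2 fold changes of 0.12 and 0.09 in the same fits.

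In the list of inflammatory caspases and gasdermins, 6 of 13 genes were tested and 2 passed without IFN-γ tumor 3, Gsdmd and Casp12. Casp12, a caspase grouped with the inflammatory ones, had 33.0, 38.0 and 40.1 CPM in the controls and 58.1, 59.5 and 49.0 CPM in the IFN-γ tumors, without overlap. Its log2 fold change was 0.58 with all 6 tumors (SE 0.11, adjusted p = 0.14, edgeR) and 0.66 without IFN-γ tumor 3 (adjusted p = 0.016, edgeR). Gsdma2, Gsdma3, Gsdmc2 and Gsdmc3 had no read. Ninj1, whose product ruptures the membrane of dying cells, changed by 0.07 on the log2 scale with all 6 tumors (adjusted p = 0.89, edgeR).

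Upstream of caspase-1, 0 of 10 tested inflammasome sensors and adaptors passed in either fit, and their median log2 fold change was 0.15 with all 6 tumors and 0.27 without IFN-γ tumor 3. Nek7, a partner of NLRP3, and Naip2, a sensor of bacterial proteins, had the highest CPM of the list, not scaled for length, with log2 fold changes of 0.08 and 0.14. Of 5 genes for IL-1 family cytokines and their antagonists, 1 passed without IFN-γ tumor 3. This was Il18bp, whose product neutralizes IL-18. It had 17.4, 33.7 and 26.0 CPM in the controls and 49.2, 56.6 and 26.8 CPM in the IFN-γ tumors. The log2 fold change of Il18bp was 0.78 with all 6 tumors (adjusted p = 0.42, edgeR) and 1.03 without IFN-γ tumor 3 (adjusted p = 0.046, edgeR). Il1b, a substrate of caspase-1, was estimated at 0.15 with all 6 tumors (adjusted p = 0.75, edgeR) and at 0.18 without IFN-γ tumor 3 (adjusted p = 0.57, edgeR).

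Among 9 tested death ligands and receptors, 2 passed without IFN-γ tumor 3, Tnfsf10 and Tnfrsf1b. Tnfrsf1b, a TNF receptor without a death domain, had 113 to 126 CPM in the controls and 161, 155 and 120 CPM in the IFN-γ tumors. Its log2 fold change was 0.28 with all 6 tumors (adjusted p = 0.45, edgeR) and 0.40 without IFN-γ tumor 3 (adjusted p = 0.037, edgeR). Tnfrsf1a, the TNF receptor with a death domain, had 142 to 145 CPM in the controls and 158 to 164 CPM in the IFN-γ tumors, which edgeR fitted as 0.16 on the log2 scale (adjusted p = 0.44, all 6 tumors). Tnfrsf10b, the mouse receptor for TRAIL, was looked at after its values were seen. It had 19.7, 19.0 and 23.5 CPM in the controls and 13.1, 16.2 and 18.4 CPM in the IFN-γ tumors, so all 3 IFN-γ tumors lay below the controls. The share of all genes with that pattern was not computed. The log2 fold change of Tnfrsf10b was -0.39 with all 6 tumors (adjusted p = 0.44, edgeR) and -0.51 without IFN-γ tumor 3 (adjusted p = 0.12, edgeR), and it passed in neither fit.

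The core of apoptosis held no called gene in either fit. Of the 10 apoptotic caspases and activators tested, 7 had a log2 fold change above 0 with all 6 tumors, and their median was 0.042. Htra2, a mitochondrial protease, had 81.1 ± 4.34 CPM among controls (SD, n = 3) and 87.7 ± 5.40 CPM in the IFN-γ group (SD, n = 3). The 11 adaptors and inhibitors had a median of -0.018. Cflar, which encodes the caspase-8 inhibitor c-FLIP, had 239 ± 17.0 CPM in the control group and 216 ± 20.4 CPM in the IFN-γ group (SD, n = 3 each), and Xiap, an inhibitor of caspases, 143 ± 4.68 and 142 ± 5.61 CPM.

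In the Bcl2 family, 7 anti-apoptotic and 10 pro-apoptotic genes were tested, with medians of 0.19 and 0.078. Mcl1, a survival factor, had 387 ± 37.9 CPM in the control group and 440 ± 33.6 CPM in the IFN-γ group (SD, n = 3 each). Bcl2l1, which encodes BCL-XL, had 109 to 113 CPM in the controls and 123, 125 and 180 CPM across the IFN-γ group (adjusted p = 0.43, edgeR). Among the pro-apoptotic genes, Bak1 had 98.0 ± 0.792 and 111 ± 17.3 CPM and Bid 55.6 ± 0.630 and 61.7 ± 4.62 CPM in the control and IFN-γ groups (SD, n = 3 each). The Bcl2a1 copies are close to identical, so their counts are uncertain.

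**Figure D5:**
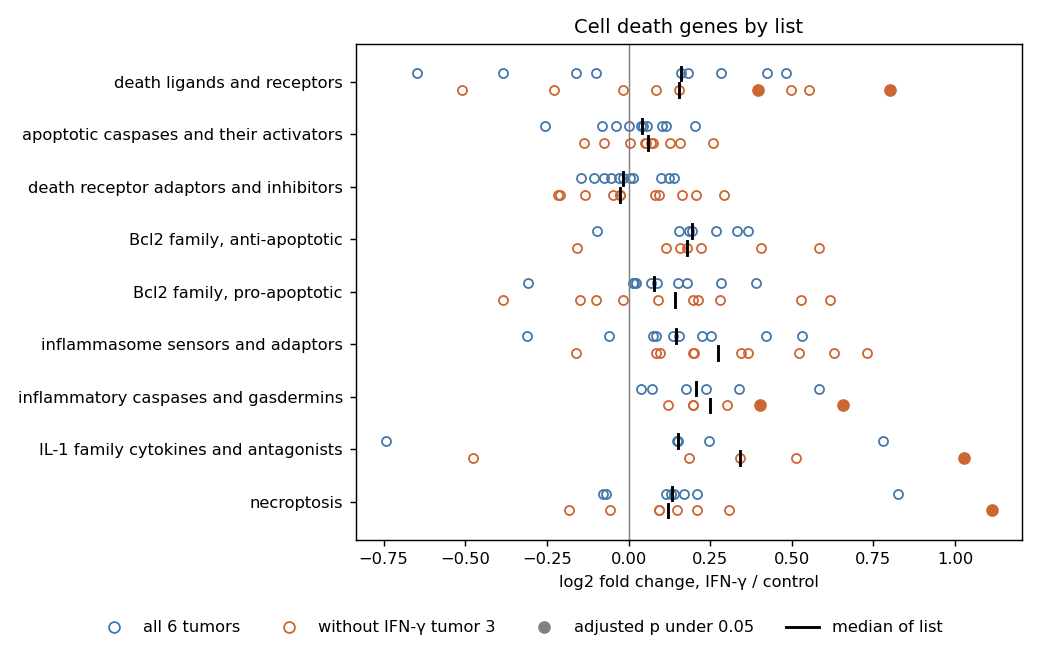
Log2 fold change (horizontal axis) of each tested gene in the 9 cell death lists, with all 6 tumors and without IFN-γ tumor 3, filled where the adjusted p was under 0.05 and with a black line at the median of each list. The 6 filled points, all without IFN-γ tumor 3, are Tnfsf10, Tnfrsf1b, Casp12, Gsdmd, Il18bp and Zbp1.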

How the data were processed

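RNA-seq was performed on 6 tumors, and the deposited table holds raw integer read counts for each gene. The submitters' processing notes name HISAT2 and the mm10 build. The counter, annotation and strandedness are not given in the sources used here. Groups came from the sample titles. All 6 tumors entered edgeR 4.0.16 (R 4.3.3), with the default filter on low counts, TMM factors and the quasi-likelihood test, with p-values adjusted by Benjamini-Hochberg over all genes tested. A standard error is the log2 fold change divided by the square root of F. The scripts were tested on simulated data. Alternatives were DESeq2 1.42.0, limma 3.58.1 (voom), other factors and filters, a block for the replicate number and leaving out each tumor. DESeq2 and limma-voom without IFN-γ tumor 3 were added after seeing the data. The labels do not say that tumors came from separate mice, so p-values measure the spread between these samples.

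Genes and lists were chosen with earlier results of these data known. Named genes were the 8, those called in a list, the 2 with the highest CPM of each list, a check of the IFN-γ response (Irf1 and Cd274), and the 5 most alike in pattern. Fasl, Tnfrsf10b, Socs1, Fabp4, Adipoq and the cell type markers named lie outside it and were named after their values were seen. Some genes under this rule are not reported here. Lists were written from general knowledge. Of the gene identifiers, 99.5% matched GENCODE M21 (GRCm38), which gave positions and exon lengths. Fas, Casp8 and Mlkl overlap other annotated genes, with 0 shared exon bases. A count of 0 allows up to 0.171 to 0.190 CPM, taken as 3 counts, counting error only. No 2 libraries appeared to be duplicates (smallest chi-square per gene 4.50).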

Additional observations from a re-analysis of the deposited data

How the results depend on the processing

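The log2 fold changes of Tnfsf10, Fas, Ripk3, Mlkl, Casp1 and Gsdmd were above 0 in all 15 alternatives run for each, but they were smaller without IFN-γ tumor 2, at 0.29 for Tnfsf10, 0.27 for Fas, 0.036 for Ripk3, 0.098 for Mlkl and 0.077 for Casp1, and without IFN-γ tumor 1 Tnfsf10 had 0.28. Casp8 fell below 0 without control tumor 1 (-0.069) and without IFN-γ tumor 2 (-0.096). Casp4 did so without control tumor 1 (-0.045), IFN-γ tumor 1 (-0.045) and IFN-γ tumor 2 (-0.066). Over the fits without 1 tumor, Casp8 reached 0.16 and Casp4 0.20. Leaving out 1 tumor gave from 0 to 2 of the 8 genes past the threshold, with 2 only without IFN-γ tumor 3, and there DESeq2 and limma-voom also gave 2. No other alternative called any of the 8. Of the genes of the 9 lists, DESeq2 called 1 (Casp12), the fit with no filter 2 (Casp12 and Zbp1), and fits without 1 tumor from 0 to 6. Without IFN-γ tumor 3, DESeq2 called 7 and limma-voom 6.

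Over all genes, 12 were higher and 5 lower with all 6 tumors. Leaving out 1 tumor gave 4 to 381 higher and 2 to 112 lower. Library size only gave 7 higher, DESeq2 125 and 71, no filter 150 and 70, and limma-voom 3 lower. Without IFN-γ tumor 3, DESeq2 gave 624 and 249, and limma-voom 422 and 107. The cause was not tested. A replicate block gave 5 higher and 2 lower genes and 0 of the 8. Deviations from the group means correlated at -0.19, -0.015 and -0.21 between tumors sharing a number, and the numbers were not treated as a pairing. With 3 tumors against 3, the exact permutation test cannot go below 0.1.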
